A study of Mus musculus with 12 samples.

Results

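The microRNAs of germ cells were set against those of the somatic cells of the same kind of gonad in CD1 mouse embryos on embryonic day 13.5 (E13.5), by small RNA sequencing on a MiSeq instrument. The comparison takes 4 of the 12 libraries of the study and all 616 mature microRNAs listed for them. On one side are the libraries labelled PGC (primordial germ cells, the precursors of eggs and sperm) from female and from male gonads. On the other are the libraries labelled SC (gonadal somatic cells) from female and from male gonads. The remaining 8 libraries are the same fractions and sexes at E11.5 and E12.5 and are used only where stages are compared. All embryos were CD1, with no transgene or treatment, and RNA under 100 bp was taken. Per the labels' protocols, the mesonephros was cut away, about 80 gonads were pooled and dissociated, and germ cells were captured with CD15 antibodies on magnetic beads. By a stain specific for PGCs, the same protocols give 93 to 96% PGCs in the germ fraction and a purity of over 90% in the somatic fraction.

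There was 1 library for each sex in each fraction, so the 2 libraries of a side are a female and a male pool and not repeated isolations. The p-values below measure only the spread between these libraries. Fewer cells of a type in a fraction and less RNA per cell cannot be told apart in such bulk samples.

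A microRNA is an RNA of about the length of the sequences printed below that is cut from a hairpin precursor, whose arms are named 5p and 3p. It guides repressor proteins to messenger RNAs, mostly through bases 2 to 8, the seed, so microRNAs with one seed share many targets. At E13.5 germ cells of both sexes still carry part of the pluripotency program, and female germ cells begin to enter meiosis while male germ cells stop dividing. The somatic cells around them are the supporting cells (Sertoli or granulosa cell precursors), the steroidogenic and mesenchymal cells, and the vessels.

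The sequences shown first are those of the germ fraction's microRNAs, because they fall into a few seed groups that recur in the results. Mature sequences are from RefSeq, build GRCm38.p6, in lower case with the seed in capitals. The miR-290 cluster lies at chr7:3218639-3220837 on the plus strand and 3 of its seed groups are shown:
miR-290a-5p: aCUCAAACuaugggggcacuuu
miR-292a-5p: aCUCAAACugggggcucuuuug
miR-293-5p: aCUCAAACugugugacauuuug
miR-291a-5p: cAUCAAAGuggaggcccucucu
miR-291b-5p: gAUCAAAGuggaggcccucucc
miR-291a-3p: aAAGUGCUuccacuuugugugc
miR-294-3p: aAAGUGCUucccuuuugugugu
miR-295-3p: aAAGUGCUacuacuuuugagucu

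The seed of the last group is also that of miR-302b-3p from another stem cell cluster. The miR-17 family carries the same letters shifted by 1 base, and is shown for its X-linked members miR-20b and miR-106a beside miR-17 of chromosome 14:
miR-302b-3p: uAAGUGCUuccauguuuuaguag
miR-20b-5p: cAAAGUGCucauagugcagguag
miR-106a-5p: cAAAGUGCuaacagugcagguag
miR-17-5p: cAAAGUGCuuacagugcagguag

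The miR-200 family has a pair of seeds that differ at 1 base, and the miR-182 cluster (chr6:30165923-30169732, minus strand) has 3 related seeds:
miR-200b-3p: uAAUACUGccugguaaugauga
miR-200c-3p: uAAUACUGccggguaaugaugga
miR-200a-3p: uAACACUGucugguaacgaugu
miR-182-5p: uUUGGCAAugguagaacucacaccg
miR-96-5p: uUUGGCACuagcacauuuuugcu
miR-183-5p: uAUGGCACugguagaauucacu

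The somatic fraction's microRNAs below stand for the mesenchymal, imprinted and gonadal groups described later:
miR-199a-3p: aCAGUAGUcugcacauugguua
miR-214-3p: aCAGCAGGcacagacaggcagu
miR-379-5p: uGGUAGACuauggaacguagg
miR-202-5p: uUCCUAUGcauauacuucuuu

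Recovered reads numbered 430262 and 392261 in the female and male PGC libraries and 1693396 and 1038570 in the SC libraries. No value stands for 1 to 4 reads, so 0 is read as under 5 reads, which is 11.6 and 12.7 reads per 1000000 microRNA reads (RPM) in PGCs and 2.95 and 4.81 RPM in SC. Of the 616 microRNAs, 375 were detected in all 4 libraries and 38 in none of them. The authors' size factors leave sums of 389180 and 361680 in PGCs against 1470916 and 1690805 in SC. PGC minus SC differences on the deposited scale therefore lie below those at equal totals. The gap has a median of -1.89 log2 units over the tested microRNAs and runs from -2.07 to -0.28, with the constant added before the log damping it for scarce microRNAs. Levels below are in RPM at equal totals unless the deposited scale is named, and differences are PGC minus SC of log2(RPM + 10) with the standard error (SE) of the limma fit.

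At equal totals the microRNAs called higher in PGCs came mostly from the miR-290, Fx-mir and miR-182 clusters and the miR-200 family, and those called lower mostly from the Dlk1-Dio3 cluster, miR-199 with miR-214 and miR-143 with miR-145. Of 453 microRNAs tested, 69 (15.2%) were higher in PGCs and 74 (16.3%) were lower (adjusted p under 0.05, limma with Benjamini-Hochberg adjustment). The former lists held 51 of the 69 and the latter 43 of the 74. On the deposited scale 43 (9.49%) were higher and 281 (62.0%) lower. The 43 were all among the 69, and the 74 were all among the 281. The calls include microRNAs at 0 in both libraries of a side, such as miR-295-5p and miR-669a-3p, whose zeros have no spread. The median difference over all tested microRNAs was -0.21 at equal totals and -1.88 on the deposited scale, and each list median below is read against these.

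**Figure D1:**
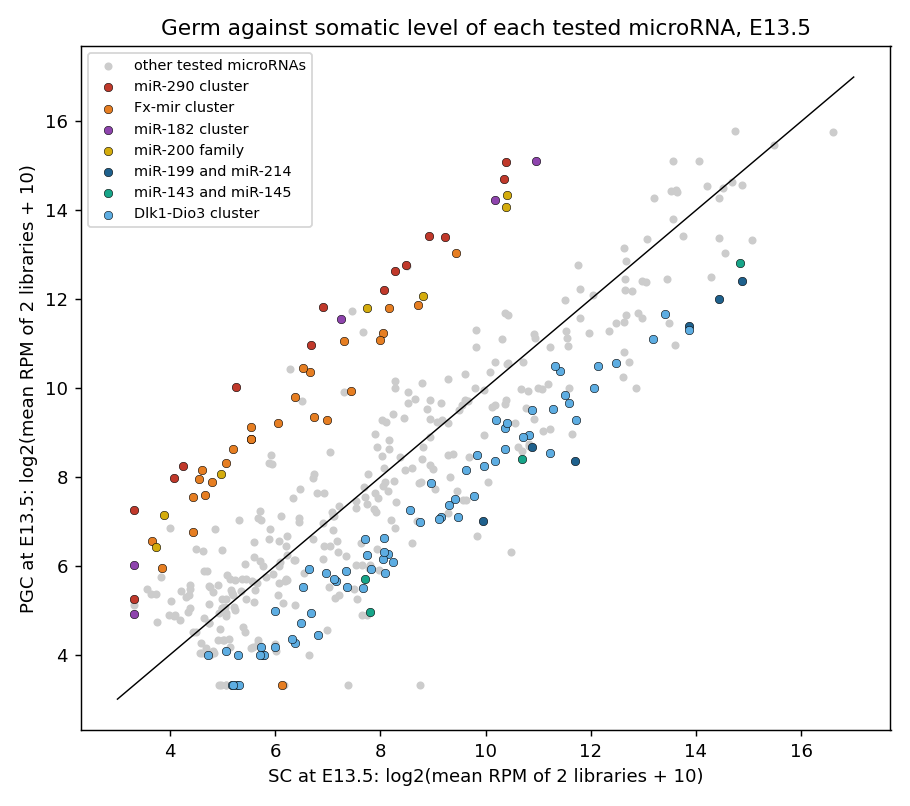
Each point is 1 of the 453 tested microRNAs at E13.5, with the SC level on the x axis and the PGC level on the y axis, both as log2(mean RPM of 2 libraries + 10); the line marks equal levels. The miR-290, Fx-mir, miR-182 and miR-200 groups lie above the line except for 1 Fx-mir member, and the Dlk1-Dio3, miR-199 with miR-214 and miR-143 with miR-145 groups lie below it.

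The calls depend on the libraries at hand. With any 1 of the 4 libraries left out, limma on the 3 that remain gave 0 calls in either direction (1 residual degree of freedom; 68 to 84 higher and 36 to 91 lower at an unadjusted p under 0.05), while all 69 and all 74 kept their sign. Where both PGC libraries lie on the same side of both SC libraries, leaving out 1 library cannot turn the sign. A fit that takes its spread from all 12 libraries called 76 higher and 91 lower. When that fit leaves out the male PGC library, 36 were higher and 15 lower, and leaving out any of the other 3 libraries gave 53 to 65 higher and 60 to 96 lower.

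The miR-290 cluster, which is abundant in embryonic stem cells and the early embryo and is known to speed the cell cycle there, took 9.78% of reads in the female and 11.9% in the male PGC library. In SC it took 0.366% and 0.604%. Both PGC libraries were above both SC libraries in all 14 tested members, against 30.7% of all tested microRNAs. All 14 were higher in PGCs at equal totals and 13 on the deposited scale, with list medians of 4.31 and 2.31. miR-295-5p and miR-290a-3p were at 0 in both SC libraries and entered the test through their PGC level. They count among the 14, but their SC zeros have no spread and their p is not given. In the fit that shares the spread of 12 libraries, 14 were called with every library in, 8 without the female PGC library, 1 without the male PGC library, 3 without the female SC library and 8 without the male SC library. All 14 differences stayed positive in each case, which the separation of the fractions in all 14 members fixes in advance.

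miR-292a-5p, the cluster's most abundant member, stood at 27149 and 42041 RPM in the female and male PGC libraries and at 706 and 1952 RPM in the SC libraries. The fractions did not overlap, and the male library was the higher in both. Its difference was 4.83 ± 0.58 (SE, adjusted p = 0.00141), or 28.5-fold, and on the deposited scale 2.77 (adjusted p = 0.0141). The deposited values behind it were 10566 and 15205 in PGCs and 1038 and 3300 in SC.

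miR-291a-5p had the largest difference of all called microRNAs. It measured 3542 and 3714 RPM in PGCs and 76.2 and 144 RPM in SC, with the sexes close together in PGCs. Its difference was 4.98 ± 0.53 (SE, adjusted p = 0.00141). miR-293-3p stood at 23934 and 29743 RPM in PGCs and at 1000 and 1596 RPM in SC, a difference of 4.39 ± 0.47 (SE, adjusted p = 0.00141).

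The differences within the cluster ran from 1.93 to 4.98. The abundant members, miR-294-3p (4.52), miR-291a-3p (4.35), miR-292a-3p (4.34) and miR-295-3p (4.18), lay within 1 log2 unit of each other. miR-295-5p was detected in PGCs at 151 and 135 RPM and in neither SC library. Its PGC mean was at least 36.8-fold higher than the mean SC floor, a bound for the means and not for each sex. By seed, the CUCAAAC group took 3.51% and 4.74% of PGC reads and 0.111% and 0.225% of SC reads. The AAGUGCU group took 2.72% and 2.92% in PGCs and 0.124% and 0.157% in SC.

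The miR-302 cluster, which shares that last seed, was near the detection floor. miR-302b-3p measured 58.1 and 40.8 RPM in PGCs and 23.6 and 6.74 RPM in SC. Of the 5 listed members 2 could be tested and neither passed.

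The small amounts in the somatic libraries bear on every germ group. The SC share of the miR-290 cluster was 3.74% of the PGC share in females and 5.06% in males. It was 8.79% and 9.98% for the Fx-mir cluster, 8.31% and 4.12% for the miR-182 cluster, and 11% and 3.18% for the miR-200 family. At E11.5 and E12.5 the miR-290 cluster took 0.024 to 0.062% of reads in the 4 SC libraries, against 0.366% and 0.604% at E13.5. The part of germ cells left in the somatic fraction in these values was not tested.

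**Figure D2:**
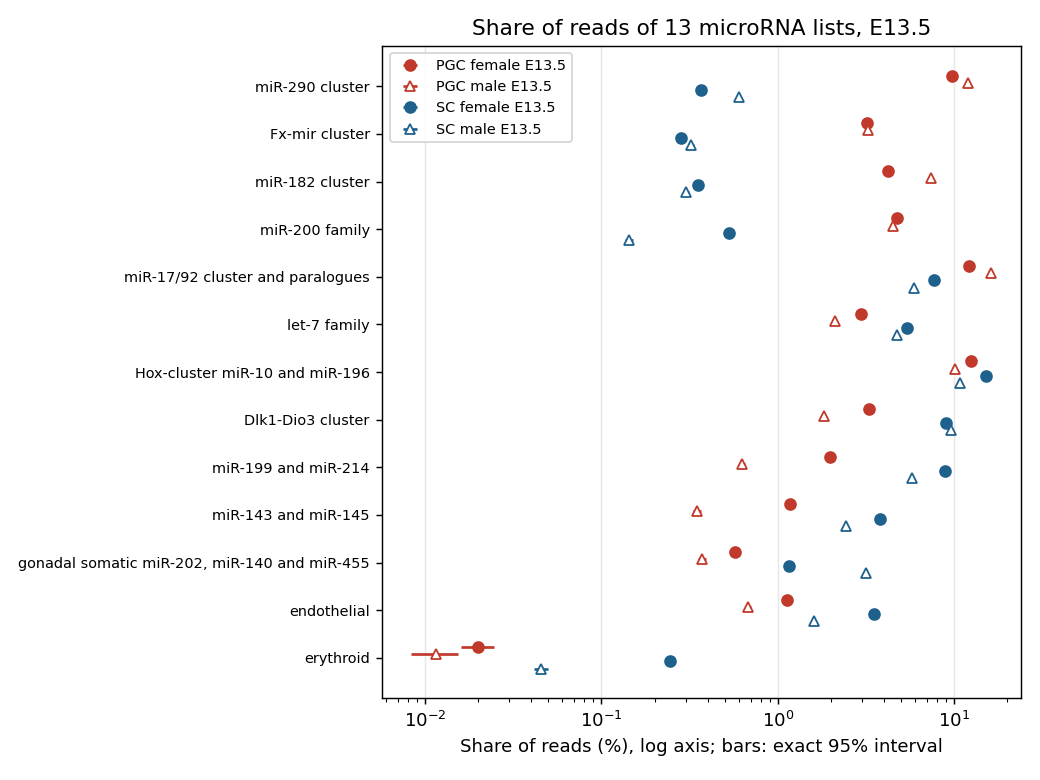
Share of each library's microRNA reads taken by 13 lists (x axis in %, log scale; 1 row per list, with symbols for the 4 libraries and exact 95% intervals for counting error). The 4 germ lists at the top are separated by fraction, with PGC shares from 3.22 to 11.9% and SC shares from 0.144 to 0.604%, and the miR-10 row shows overlapping fractions.

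The Fx-mir cluster, a run of rapidly evolving microRNAs on the X chromosome (chrX:66776760-67988403) known from testis, was the largest germ group by number. It took 3.22% and 3.24% of PGC reads and 0.283% and 0.323% of SC reads. Of 27 tested members 26 were higher in PGCs and 1 was lower, and on the deposited scale 17 were higher and 1 lower. The list medians were 3.27 and 1.36. Leaving out 1 library at a time in that same fit, 18 to 23 were higher.

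miR-881-3p led the cluster with 8362 and 8413 RPM in PGCs and 798 and 569 RPM in SC. The female and male PGC libraries nearly coincided and lay above both SC libraries. Its difference was 3.62 ± 0.48 (SE, adjusted p = 0.00176), and its deposited values were 3254 and 3043 in PGCs and 1174 and 962 in SC.

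miR-741-3p (3.15, with 4074 and 3373 RPM in PGCs) and miR-871-3p (3.63, with 4107 and 3018 RPM) followed. miR-741-3p had a difference of 1.09 on the deposited scale and did not pass there (adjusted p = 0.0720). Some names in the cluster share reads. miR-465b-3p and miR-465c-3p have the same mature sequence and equal read numbers in all 4 libraries, and miR-465a-3p, of the same sequence too, has 0.49 to 0.50 times as many, so values of these names are uncertain.

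The exception was miR-547-3p. It was at 0 in both PGC libraries and at 53.1 and 66.4 RPM in SC. It entered the test through its SC level, and 2 zeros have no spread, so its p is not given. Against the mean floor of 5 reads per PGC library it was at least 4.91-fold lower in PGCs.

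Over the whole X chromosome, 30 of 67 tested microRNAs were higher in PGCs and 7 lower. Outside the Fx-mir cluster 4 of 40 were higher and 6 lower, with a median of -0.52. Over all tested microRNAs 15.2% were higher and 16.3% lower. The X outside Fx-mir took 2.56% and 2.31% of PGC reads and 3.20% and 3.49% of SC reads.

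Those 4 belong to the X-linked miR-106a/363 cluster, a paralogue of the miR-17/92 cluster, whose members promote cell proliferation. Of the 22 tested members of miR-17/92 and its paralogues, 6 were higher in PGCs at equal totals (list median 0.90). Over all tested microRNAs 15.2% were. By chromosome, 4 of the 5 tested members with an entry on X only were called, with a median of 3.55. The called ones include miR-18b-3p, at 23.2 and 30.6 RPM in PGCs and at 0 in both SC libraries. It entered the test through its PGC level, and its SC zeros have no spread. Of 8 on chromosome 14 and 6 on chromosome 5 none was called, with medians of 0.69 and 0.47. The deposited scale gave 4 of the list higher and 8 lower, against 9.49% and 62.0% of all tested microRNAs. In the fit of 12 libraries, 2 members of the list were higher without the male PGC library, against 4 to 6 without one of the others.

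miR-20b-5p of the X-linked cluster stood at 5743 and 8092 RPM in PGCs and at 405 and 301 RPM in SC, a difference of 4.25 ± 0.50 (SE, adjusted p = 0.00141). miR-17-5p, with the same seed, stood at 15958 and 23617 RPM in PGCs and at 10951 and 7998 RPM in SC. The fractions did not overlap for either. The difference of miR-17-5p was 1.05 ± 0.43 (SE, adjusted p = 0.0962) and turned to -1.02 on the deposited scale.

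miR-106a-5p (3.55) and miR-363-3p (4.21) were called on both scales. miR-92a-3p, encoded on chromosome 14 and on X, was higher by 1.54 (adjusted p = 0.0207) at equal totals and had -0.53 on the deposited scale (adjusted p = 0.221).

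The miR-182 cluster is known from sensory cells, and it took 4.24% and 7.35% of PGC reads against 0.352% and 0.303% of SC reads. Of its 5 tested members 4 were higher on both scales, with medians of 4.01 and 1.94. The 4 include miR-182-3p, at 46.5 and 63.7 RPM in PGCs and at 0 in both SC libraries. It entered the test through its PGC level, and its SC zeros have no spread. That count of 4 was the same with any 1 library left out of the fit with the spread of 12 libraries.

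miR-182-5p stood at 24966 and 46280 RPM in PGCs and at 2152 and 1813 RPM in SC. The male PGC library was the highest and both SC libraries were far below. Its difference was 4.10 ± 0.47 (SE, adjusted p = 0.00141), or 17.1-fold. miR-183-5p (4.01) and miR-96-5p (4.31) had the same order of libraries by fraction.

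The miR-200 family represses the Zeb transcription factors and keeps cells epithelial. It took 4.77% and 4.52% of PGC reads and 0.526% and 0.144% of SC reads. All 7 tested members were higher in PGCs at equal totals and 4 on the deposited scale. With 1 library left out at a time and the spread of 12 libraries, 6 or 7 were higher.

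miR-200a-3p stood at 22572 and 19074 RPM in PGCs and at 2210 and 481 RPM in SC. The SC libraries differed by sex by 4.59-fold, and both were below PGCs. Its difference was 4.31 ± 0.71 (SE, adjusted p = 0.00384).

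miR-200b-3p (3.82) and miR-200c-3p (4.27) passed on both scales. miR-429-3p (3.93) had 785 RPM in the female and 88.6 RPM in the male SC library, and did not pass on the deposited scale (adjusted p = 0.125).

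Single members of other lists were high in PGCs too. miR-9-5p, a microRNA of neural progenitors, stood at 3430 and 3416 RPM in PGCs and at 214 and 117 RPM in SC, a difference of 4.35 ± 0.53 (SE, adjusted p = 0.00141). It carried the neural marker list, which took 0.502% and 0.582% of PGC reads and 0.099% and 0.119% of SC reads. Of the 4 tested neural markers 2 were higher, against 1 on the deposited scale. Over all tested microRNAs the shares were 15.2% and 9.49%.

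miR-204-5p, a microRNA of kidney and pigment epithelium, stood at 960 and 706 RPM in PGCs and at 56.7 and 106 RPM in SC (3.25, adjusted p = 0.00384). miR-29a-3p, a repressor of collagen and DNA methyltransferase messages, stood at 311 and 303 RPM in PGCs and at 52.0 and 46.2 RPM in SC (2.43, adjusted p = 0.00830). Neither passed on the deposited scale (adjusted p = 0.0802 and 0.287).

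**Figure D3:**
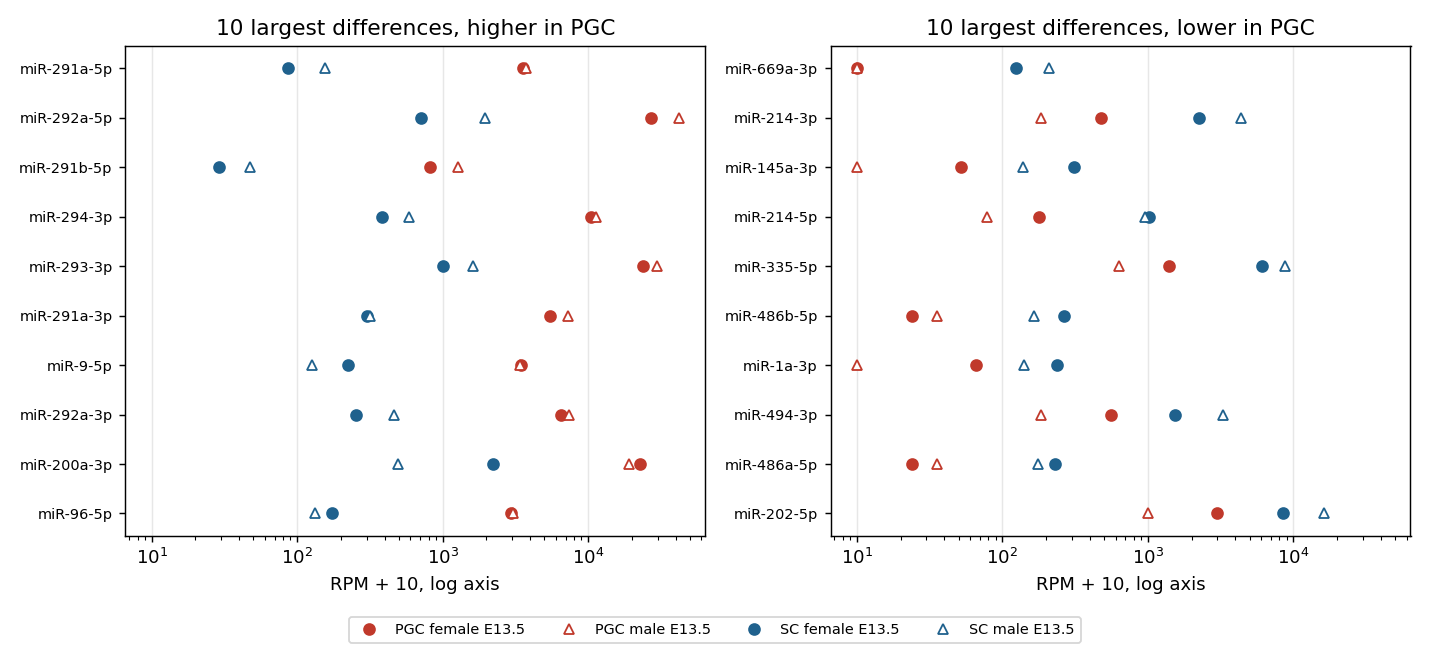
RPM + 10 (x axis, log scale) in the 4 libraries for the 10 microRNAs with the largest called differences in each direction. Only microRNAs with a mean of at least 50 RPM and no overlap of the fractions were taken. By that choice both PGC libraries lie to the right of both SC libraries in all 10 rows on the left. On the right the order is the opposite by the same choice.

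On the somatic side, miR-199 and miR-214, which come from a mesenchymal transcript, took 8.92% and 5.80% of SC reads and 1.98% and 0.625% of PGC reads. All 6 tested members were lower in PGCs on both scales, with medians of -2.65 and -4.72. Leaving out 1 library in the fit of 12, 5 or 6 were lower, except that 2 were without the male PGC library.

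miR-199a-3p stood at 8162 and 2644 RPM in PGCs and at 38854 and 21316 RPM in SC. The fractions did not overlap, and the female library was the higher in both. Its difference was -2.63 ± 0.61 (SE, adjusted p = 0.0181). Its read number is about 2 times that of miR-199b-3p, which has the same sequence from another locus, so the split between both names is uncertain.

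miR-214-3p stood at 465 and 173 RPM in PGCs and at 2248 and 4346 RPM in SC, with the male library the lower in PGCs and the higher in SC. Its difference was -3.41 ± 0.64 (SE, adjusted p = 0.00690). miR-214-5p (-3.06) and miR-199a-5p (-2.68) were called too.

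miR-143 and miR-145, microRNAs of smooth muscle and fibroblasts, took 3.80% and 2.43% of SC reads and 1.17% and 0.347% of PGC reads. All 4 tested members were lower in PGCs on both scales. By the fit of 12 libraries 1 was lower without the male PGC library and 1 without the female SC library, against 3 or 4 without one of the others.

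miR-143-3p stood at 11119 and 3271 RPM in PGCs and at 35559 and 22655 RPM in SC. The female PGC library reached 30.8% of the female SC share for the list and the male 14.3%. The difference of miR-143-3p was -2.23 ± 0.61 (SE, adjusted p = 0.0317).

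The Dlk1-Dio3 cluster (chr12:109563710-110278115) is an imprinted run of microRNAs expressed from the maternal allele. It took 9.01% and 9.59% of SC reads and 3.27% and 1.83% of PGC reads. Of 68 tested members 33 were lower in PGCs at equal totals and all 68 on the deposited scale, and none was higher on either, with medians of -1.84 and -3.44. In 67 of the 68 both PGC libraries were below both SC libraries, against 36.6% of all tested microRNAs. By the fit of 12 libraries 23 to 45 were lower with 1 left out, except that 4 were without the male PGC library.

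miR-379-5p stood at 3084 and 1963 RPM in PGCs and at 14137 and 15877 RPM in SC. Both SC libraries were close together and far above both PGC libraries. Its difference was -2.60 ± 0.46 (SE, adjusted p = 0.00547), and the deposited values were 1200 and 710 in PGCs and 20794 and 26844 in SC.

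miR-411-5p (-2.10), miR-127-3p (-1.99) and miR-541-5p (-1.82) were called lower as well. miR-494-3p had the largest difference of the cluster (-2.81), with 551 and 173 RPM in PGCs and 1522 and 3275 RPM in SC.

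Of 20 tested members of the Sfmbt2 cluster, a repeat array with near-identical copies, 1 was higher and 1 lower, with a median of 0.73. Over all tested microRNAs 15.2% were higher and 16.3% lower. The member called lower, miR-669a-3p, was at 0 in both PGC libraries and at 113 and 200 RPM in SC. By the SC mean against the mean PGC floor it was at least 12.9-fold lower in PGCs. It too entered the test through its SC level. Reads of such copies can be split among names, so its value is uncertain.

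miR-335-5p, from an intron of the imprinted gene Mest, stood at 1392 and 627 RPM in PGCs and at 6098 and 8770 RPM in SC (-2.95 ± 0.56, SE, adjusted p = 0.00690). Its partner arm miR-335-3p stood at 2524 and 3584 RPM in PGCs and at 4930 and 2188 RPM in SC, with overlapping fractions. Both arms are printed because the more abundant arm differed between fractions:
miR-335-5p: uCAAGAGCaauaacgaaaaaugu
miR-335-3p: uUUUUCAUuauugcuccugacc

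The log2 ratio of 5p to 3p reads of miR-335 was -0.86 and -2.51 in PGCs and 0.31 and 2.0 in SC. Among 97 hairpins with both arms detected in all 4 libraries, 2 had one major arm in both PGC libraries and the other in both SC libraries, miR-335 and miR-181c. By the fraction means miR-485 switched too, at -0.10 in PGCs and 0.73 in SC, but its PGC libraries differed in sign (0.11 and -0.30). miR-181c differed less, with -0.34 and -0.48 in PGCs and 0.13 and 0.36 in SC. The ratios of the fractions did not overlap for 32 of the 97, near the share of 0.333 that a random order of 2 against 2 libraries gives. The median PGC minus SC ratio was -0.06. These ratios were not tested, and they do not depend on the scale.

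**Figure D4:**
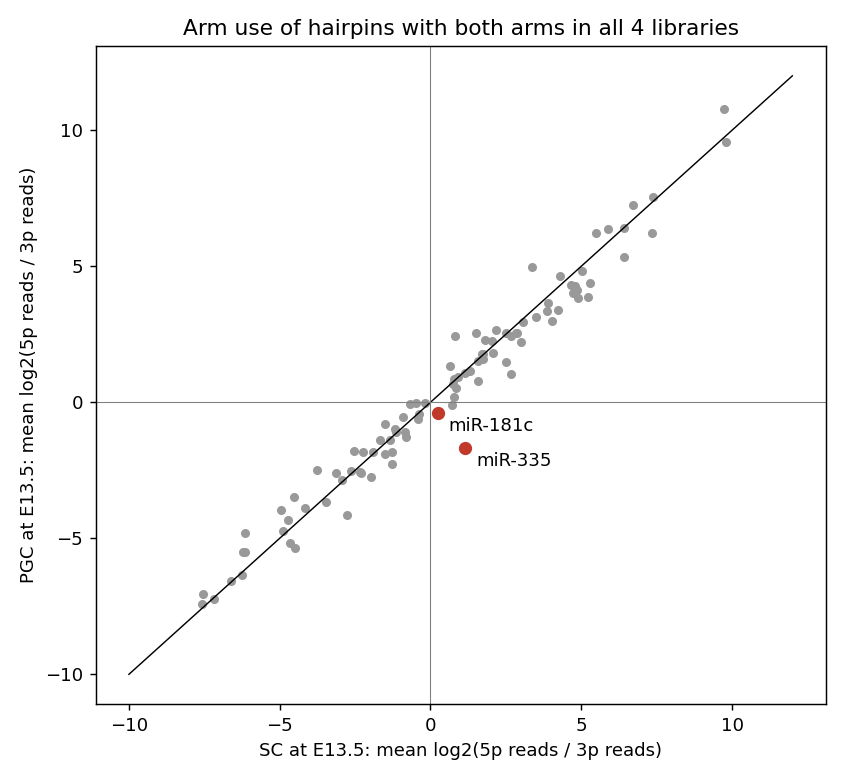
Mean log2 ratio of 5p to 3p reads in SC (x axis) and in PGCs (y axis) for 97 hairpins with both arms detected in all 4 libraries; the diagonal marks equal ratios. The hairpins lie along the diagonal, and the red points mark miR-335, at 1.16 in SC and -1.69 in PGCs, and miR-181c, at 0.24 and -0.41.

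The microRNAs known from gonadal somatic cells, miR-202, miR-140 and miR-455, took 1.15% and 3.17% of SC reads and 0.575% and 0.370% of PGC reads. Of 6 tested members 1 was lower at equal totals and 6 on the deposited scale, where 16.3% and 62.0% of all tested microRNAs were. The one called at equal totals was miR-202-5p, a gonad-enriched microRNA of Sertoli cells. It stood at 2982 and 997 RPM in PGCs and at 8436 and 16334 RPM in SC (-2.76 ± 0.64, SE, adjusted p = 0.0181). The fit of 12 libraries gave 0 lower members without the male PGC library, 5 without the female SC library and 1 without either of the others.

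The X-linked miR-322 cluster, with miR-503 and miR-542, promotes cell cycle exit in muscle. Of its 11 tested members 5 were lower in PGCs at equal totals and 11 on the deposited scale. Over all tested microRNAs the shares were 16.3% and 62.0%. miR-542-3p stood at 593 and 387 RPM in PGCs and at 1752 and 4642 RPM in SC (-2.55 ± 0.62, SE, adjusted p = 0.0209). The fit of 12 libraries called 3 lower without the male PGC library, against 4 to 6 without one of the others.

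The let-7 family, which opposes Lin28 and stem cell programs, took 2.95% and 2.10% of PGC reads and 5.42% and 4.76% of SC reads. Of 15 tested members 2 were lower in PGCs, against 10 on the deposited scale, with medians of -0.54 and -2.60. These counts are close to the 16.3% and 62.0% of all tested microRNAs. let-7c-5p stood at 3570 and 2062 RPM in PGCs and at 11695 and 11165 RPM in SC (-2.07, adjusted p = 0.0174). let-7f-5p stood at 6059 and 4584 RPM in PGCs and at 8498 and 8518 RPM in SC and did not pass (adjusted p = 0.257).

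The microRNAs miR-125, miR-99 and miR-100 often share a precursor with let-7. Of their 9 tested members 2 were lower at equal totals and 9 on the deposited scale. Over all tested microRNAs the shares were 16.3% and 62.0%. The 2 called at equal totals were miR-125b-5p (-1.85, adjusted p = 0.0229) and miR-99a-5p (-1.74, adjusted p = 0.0160). miR-99a-5p stood at 11895 and 8831 RPM in PGCs and at 31346 and 37262 RPM in SC. The fit of 12 libraries called 0 members of either family lower without the male PGC library. Without one of the others it was 2 to 5 of let-7 and 1 to 4 of miR-125, miR-99 and miR-100.

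Of 6 tested members of the miR-148 and miR-152 family 2 were lower, against 16.3% of all tested microRNAs. miR-152-3p stood at 1260 and 1152 RPM in PGCs and at 4813 and 7729 RPM in SC (-2.33 ± 0.49, SE, adjusted p = 0.0118). All 6 of the family were lower on the deposited scale, against 62.0% of all tested microRNAs.

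**Figure D5:**
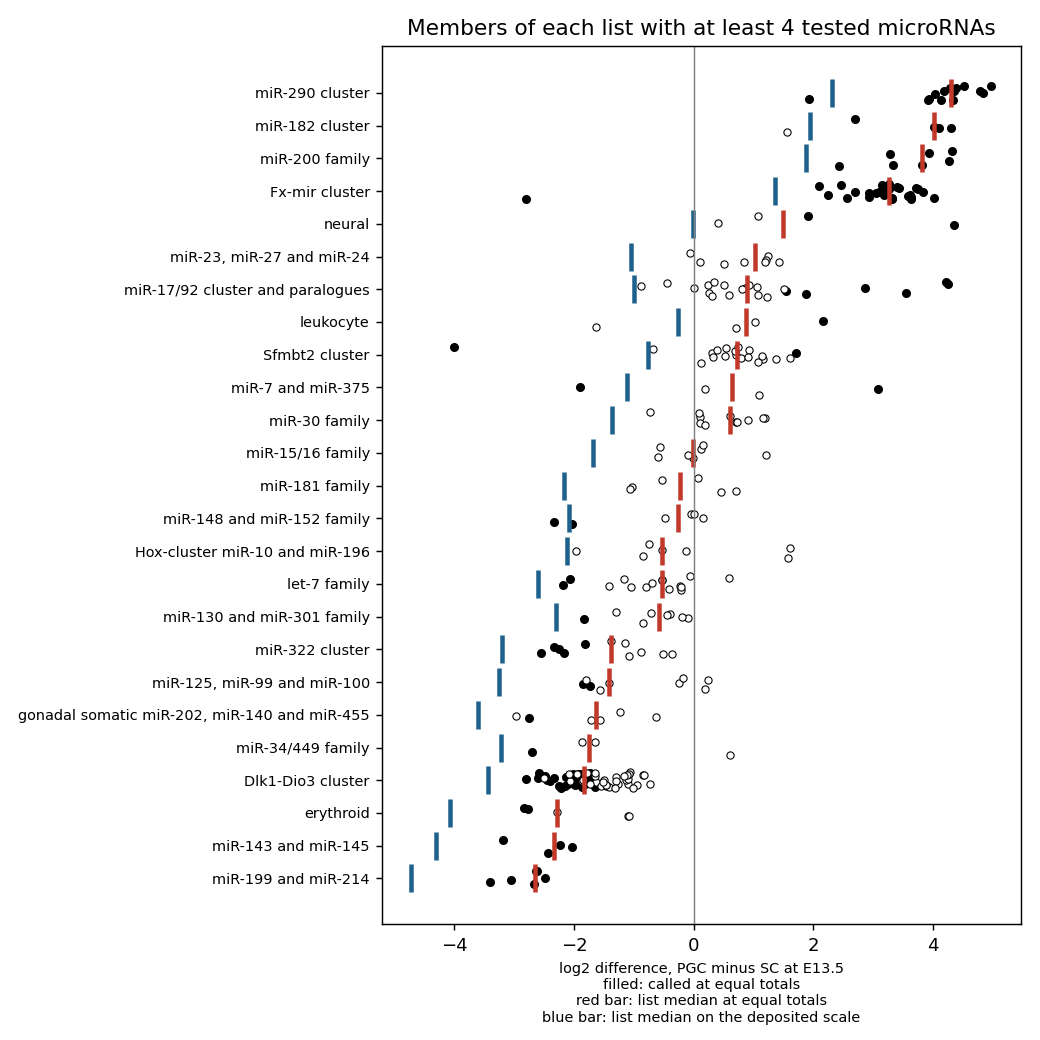
PGC minus SC log2 difference (x axis) of every tested member of each list with at least 4 tested microRNAs (rows); filled points passed at equal totals, and the bars are the list medians at equal totals (red) and on the deposited scale (blue). The medians run from 4.31 in the miR-290 cluster to -2.65 in miR-199 with miR-214 at equal totals, and the blue bar lies to the left of the red one in every row.

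miR-10b-5p and miR-26a-5p, each among the 5 most abundant of every library, were not called at equal totals. miR-10b-5p, from a Hox cluster, stood at 60482 and 50576 RPM in PGCs and at 99612 and 99773 RPM in SC (-0.85 ± 0.31, SE, adjusted p = 0.0709). miR-26a-5p stood at 48912 and 42474 RPM in PGCs and at 47150 and 45096 RPM in SC. Its difference was -0.02 with a 95% interval of -0.78 to 0.75 (adjusted p = 0.976), while on the deposited scale it was called lower at -2.09 (adjusted p = 0.00544).

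miR-10a-5p, which has the seed of miR-10b-5p, stood at 62811 and 49416 RPM in PGCs but at 47961 and 6955 RPM in SC. It was not called, and the somatic sexes lay further apart than the fractions. Of the 11 tested members of the miR-30 family none was called at equal totals. miR-30a-5p stood at 26956 and 21985 RPM in PGCs and at 10242 and 49618 RPM in SC, so that PGCs lay between the somatic sexes.

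Markers of red blood cells, vessels and muscle had higher shares in SC and were uneven there between the sexes. Over all tested microRNAs 16.3% were lower in PGCs, and of 5 tested erythroid markers 2 were. In the fit of 12 libraries it was 4 without the male SC library and 0 without any of the others. The erythroid list of 6 took 0.020% and 0.011% of PGC reads and 0.246% and 0.045% of SC reads. miR-451a, made in red cell precursors, stood at 135 and 48.4 RPM in PGCs and at 1697 and 108 RPM in SC and did not pass (adjusted p = 0.157). miR-486a-5p (-2.78) and miR-486b-5p (-2.84), which come from opposite strands of one locus and share reads, were the 2 called.

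The endothelial miR-126a pair took 1.12% and 0.675% of PGC reads and 3.51% and 1.61% of SC reads. miR-126a-3p stood at 10433 and 6376 RPM in PGCs and at 32727 and 15410 RPM in SC (-1.46, adjusted p = 0.0624). The liver list was at 0 in 3 libraries and at 0.084% in the female SC library, where miR-122-5p reached 842 RPM. Muscle miR-1a-3p stood at 55.8 and 0 RPM in PGCs and at 227 and 131 RPM in SC (-2.83, adjusted p = 0.0424). Of the markers not yet given, 1 of 4 tested leukocyte and 2 of 3 tested kidney microRNAs were higher in PGCs at equal totals. On the deposited scale none was. Over all tested microRNAs the shares were 15.2% and 9.49%. The part of such cells in the lower levels of the mesenchymal groups in PGCs was not tested.

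Female and male libraries within a fraction were compared as values without a test, among microRNAs at 100 RPM or more in either sex. In PGCs 3 of 285 (1.05%) were at least 4-fold higher in the female and 0 (0.0%) in the male library. They were miR-669a-5p (242 against 0 RPM), miR-499-5p (8.36-fold) and miR-141-3p (4.92-fold). miR-669a-5p also stood at 126 in the female and 0 in the male SC library on the deposited scale. It belongs to the Sfmbt2 cluster, where reads can be split among names, so its value is uncertain. In SC 15 of 290 (5.17%) were higher in the female and 8 (2.76%) in the male library.

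The male somatic set held miR-202-3p at 2719 against 130 RPM, 20.9-fold higher, and miR-455-3p at 1383 against 188 RPM, 7.36-fold higher. It also held miR-140-3p at 4978 against 1147 RPM, 4.34-fold higher, and miR-455-5p at 4.42-fold. The gonadal somatic list thus gave 4 of the 8. In PGCs miR-202-3p stood at 72.0 and 66.3 RPM, with no such gap between the sexes.

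The female somatic set held miR-27a-5p at 1198 against 29.8 RPM, 40.1-fold higher, miR-196b-5p at 1201 against 120 RPM and miR-10a-5p at 6.90-fold. It also held miR-451a at 15.7-fold, and miR-122-5p, miR-1298-5p, miR-144-5p and miR-7b-5p, which were at 0 in the male library. On the deposited scale 14 of 319 were higher in the female and 14 in the male SC library, so the somatic split between the sexes depends on the scale.

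The germ against somatic difference at E13.5 was then set against that at the earlier stages, in a fit of all 12 libraries that tested 473 microRNAs. Against E12.5 it was more positive for 3 (0.634%) and more negative for 0 (0.0%). At an unadjusted p under 0.05, 8 were more negative and 42 changed in all. Against E11.5 it was more positive for 5 (1.06%) and more negative for 2 (0.423%). All 4 counts were 0 with sex as a block in limma, with 41 and 13 against E12.5 and 32 and 53 against E11.5 at an unadjusted p under 0.05, and on the deposited scale 1 remained, as a more negative difference against E11.5.

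The Fx-mir cluster supplied most of them. In PGCs its share was 0.004% (female) and 0.133% (male) on the first day, 0.433% and 0.479% on the next, and 3.22% and 3.24% on the last. In SC it was at most 0.013% before E13.5. miR-743b-5p was at 0 in all libraries of the earlier stages and at 205 and 148 RPM in PGCs and 13.6 and 9.63 RPM in SC at E13.5. Its change was 3.10 against either stage. Because its earlier values are all under the floor, that size depends on the added 10 RPM and is no bound. It entered the test through its E13.5 level, and its earlier zeros have no spread, so its p is not given.

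miR-379-5p of the Dlk1-Dio3 cluster moved the other way against E11.5. It stood at 15680 and 10972 RPM in PGCs at E11.5 and at 3084 and 1963 RPM at E13.5, while SC stood at 15307 and 12814 RPM and at 14137 and 15877 RPM. The fractions overlapped at E11.5 and PGCs lay below SC at E13.5, and the change was -2.51 ± 0.47 (SE, adjusted p = 0.0243). At E11.5 miR-143 and miR-145 took 4.68% (female) and 3.28% (male) of PGC reads and 5.98% and 5.12% of SC reads. Their PGC shares at E13.5 were 1.17% and 0.347%. The miR-290 cluster was higher in PGCs at E11.5, with 0.235% and 7.13% against 0.034% and 0.024% in SC. The part of somatic cells in the E11.5 germ fraction in the change of miR-379-5p was not tested.

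The miR-290 cluster gave no call in these contrasts. Its PGC share was 0.235% (female) and 7.13% (male) on the first day and 12.8% and 14.3% on the next, before the 9.78% and 11.9% given above. The female and male PGC libraries at E11.5 lay far apart, with the female one close to the level of SC at E13.5.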

How the data were processed

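The members and lists were chosen with earlier results of these data known. Per the submitters' processing notes, the authors used FastQC, Trim Galore, Bowtie 1.1.2, DESeq and the build GRCm38; how reads were counted is not given in the sources used here. What the authors deposited is a normalized signal: the counts of each mature microRNA over the size factor of its library. All values were whole multiples (tolerance 1e-06) of the library's smallest value divided by 5, which gave reads. Each library was scaled to 1000000 reads. MicroRNAs with a mean of at least 10 RPM over the 4 libraries (453 of 616) were tested as log2(RPM + 10) with limma 3.58.1 in R 4.3.3 (empirical Bayes with trend, Benjamini-Hochberg adjustment, threshold 0.05, 2 residual and 5.76 prior degrees of freedom), and likewise on the deposited scale. The added 10 understates differences of scarce microRNAs. Stage contrasts used 6 groups of 2 libraries (6 residual degrees of freedom). An exact permutation test of 2 against 2 cannot go below p = 0.333. Intervals of shares are exact (95%) and, like floors, cover counting error only.

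Named microRNAs were the 10 largest called differences in each direction with a mean of at least 50 RPM and no overlap, the 5 most abundant of each library, up to 4 of each list, the largest stage contrasts and the 5 largest sex differences. Others, such as miR-295-5p, miR-302b-3p, miR-363-3p, miR-122-5p and the X-linked members, were named after their values were seen. Of 616 names, 526 matched a RefSeq sequence.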

Additional observations from a re-analysis of the deposited data

Results flagged for a closer look

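The germ against somatic difference changed between stages for 8 microRNAs, by an interaction term in the limma fit of 12 libraries. Against E12.5, the change on the log2 scale was 3.10 for miR-743b-5p, 2.94 for miR-883b-5p and 3.62 for miR-330-5p, whose adjusted p was 0.0274. miR-330-5p was at 0 in both E12.5 PGC libraries and at 87.6 RPM or more in the other 10 libraries. Its zeros mean under 30.0 RPM (female) and 27.1 RPM (male) and have no spread. Its size and p therefore depend on the added 10 RPM. Those E12.5 PGC libraries were the least deep of the 12, with 166804 and 184174 reads, and the part of depth was not tested. Against E11.5, it was 3.10 for miR-743b-5p and 2.94 for miR-883b-5p. It was 3.27 for miR-465b-3p and for miR-465c-3p and 3.04 for miR-465a-3p, which share 1 sequence (adjusted p = 0.0243 each). It was -2.80 for miR-547-3p, which was at 0 in the PGC libraries of both stages and in SC at E11.5. SC stood at 53.1 and 66.4 RPM at E13.5, so that size depends on the added 10 RPM. The change was -2.51 for miR-379-5p (adjusted p = 0.0243). None passed with sex as a block. In PGCs at E11.5 the 5 Fx-mir names of positive change were at 0, so their sizes and p-values depend on the added 10 RPM. Of these, miR-743b-5p and miR-883b-5p were at 0 in all libraries of both earlier stages, so their p is not given.

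For 11 tested microRNAs the fractions differed in opposite directions in the female and male pairs, by 1 log2 unit or more in each, and 5 of them are among the microRNAs followed here by name. With 1 pair per sex these differences were not tested. PGC minus SC was 1.40 in the female and -1.17 in the male pair for miR-30a-5p. It was -1.29 and 3.49 for miR-7b-5p, -1.58 and 1.32 for miR-196b-5p, -3.49 and 1.34 for miR-144-5p, and -2.40 and 1.34 for miR-1298-5p. For each of these 5 the SC libraries were further apart than the PGC libraries. In the male SC library miR-7b-5p, miR-144-5p and miR-1298-5p were at 0, so their male values depend on the added 10 RPM. miR-144-5p and miR-1298-5p each took 0.00153% of male PGC reads, close to the floor, so their opposite direction is uncertain.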

How the results depend on the processing

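At equal totals, 69 higher and 74 lower calls became 43 and 281 on the deposited scale. Lower calls fell to 33 with a pseudocount of 1 RPM, to 44 with no filter and to 49 with voom on the recovered reads, while higher calls were 58 to 76 under the other scalings, pseudocounts, filters and fits. Leaving out 1 library gave 0 calls from 3 libraries in each direction at equal totals. On the deposited scale it gave 0 to 32 higher and 0 to 201 lower. With the spread of all 12 libraries (chosen after seeing the data, as was voom), it gave 36 to 65 higher and 15 to 96 lower at equal totals, and 17, 18, 24 and 21 higher (without the female PGC, male PGC, female SC and male SC library) and 144 to 206 lower on the deposited scale. In such fits the lone library of a side is assumed to vary like the other groups. Of the 69, 65 kept their sign on the deposited scale and 43 were called, and all 74 were called again.

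With sex as a replicate block, 71 were higher and 90 lower, including all 69 and all 74, and on the deposited scale 46 and 290. The female libraries' deviations from their group means had a correlation of 0.14 between PGC and SC over 453 microRNAs; whether both fractions of a sex share gonads is not given in the labels.

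The contrast with E12.5 gave 3 higher calls, against 0 on the deposited scale, 20 with a pseudocount of 1 RPM, 0 with the block and 0 to 9 without 1 library. The contrast with E11.5 gave 5 higher and 2 lower. It gave 0 and 1 on the deposited scale, 0 higher with a pseudocount of 1 RPM, 8 and 7 with no filter, 0 and 0 with the block, and 0 to 25 and 0 to 12 without 1 library (6 lower without the male E11.5 PGC library). On the deposited scale 1 of 218 microRNAs was higher in the female PGC library, against 3 of 285 at equal totals. It was miR-199b-5p (4.20-fold, and 3.90-fold at equal totals), which is none of those 3. In the male SC library 14 of 319 were higher on the deposited scale, against 8 of 290.

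The sign turned on the deposited scale for miR-92a-3p (-0.53), miR-20a-5p (-0.99) and miR-17-5p (-1.02). That of miR-26a-5p, near 0, turned to 0.085 without the male PGC library and to 0.015 without the female SC library. The cause of these changes was not tested. Planned count-model alternatives were not run because the deposited unit, with no value under 5 reads, does not admit them. Depth limits PGCs most: a microRNA under 11.6 to 12.7 RPM there is not detectable.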

Other observations

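Among 616 microRNAs, 49 were detected in both SC libraries and in neither PGC library, and 6 in both PGC libraries and in neither SC library. The 6 were miR-295-5p, miR-182-3p, miR-290a-3p, miR-18b-3p, miR-96-3p and miR-1195. Their lower bounds, of the PGC mean over the mean SC floor, ran from 36.8-fold for miR-295-5p and 14.2-fold for miR-182-3p to 5.23-fold for miR-96-3p. These bounds do not hold for each sex, and in the male PGC library miR-96-3p was at the floor of 12.7 RPM. All but miR-1195 come from hairpins whose other arm was high in PGCs or from the X-linked miR-106a/363 cluster. The SC libraries were the deeper, so the counts of 49 and 6 are not comparable.

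In no list were 4 of the higher and 10 of the lower calls. miR-31-5p stood at 304 and 398 RPM in PGCs and at 45.5 and 54.9 RPM in SC. miR-708-5p, from an intron of Tenm4, stood at 495 and 306 RPM in PGCs and at 2039 and 1088 RPM in SC, and its 3p arm was called lower too. miR-107-3p stood at 632 and 609 RPM in PGCs and at 1809 and 2041 RPM in SC. The fractions did not overlap in any of these 3, which were chosen after their values were seen.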
